A study of Mus musculus with 3 samples.

Results

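The set described here was the 1891 nucleotides of the mouse genome that carried cDNAs in all 3 Tra2β iCLIP libraries made from testis. A nucleotide was a member when the same base of the same strand carried at least 1 cDNA in each library, and the mitochondrial genome was left out. Members were thus selected on their cDNA counts, so counts and presence are given below as a description, with no test. The members were 0.140% of the 1351772 nucleotides found in any library. They made up 0.567% of the positions of replicate 1, 0.322% of those of replicate 2 and 0.416% of those of replicate 3.

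The libraries formed 1 group, with no control, input or knockout library to compare with. A base that carried cDNAs is called crosslinked below, and background could not be told apart from contacts of Tra2β. Each came from minced testes of adult wild type mice. The labels call the cells mixed, the study's methods describe a release of germ cells by the mincing before irradiation, and Tra2β was pulled down with a polyclonal antibody from Abcam. The sources used here did not say how many animals went into a library, or their age in weeks. Testis germ cell markers were crosslinked in every library, at 1793, 547 and 2124 CPM (the count scaled to the total of its library) summed over 8 genes in replicates 1, 2 and 3. Sertoli cell markers summed to 155, 124 and 123 CPM over 6 genes, Leydig cell markers to 115, 74.2 and 113 CPM over 5 genes, and the blood markers Hba-a1 and Hbb-bs were at 0. In such mixed material, fewer cells of a type and less RNA per cell cannot be told apart. A count of 0 allows up to 8.62, 4.84 and 6.14 CPM in the 3 libraries, counting error only.

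In iCLIP, ultraviolet light joins a protein to the RNA it touches. A stub of protein left on the RNA often halts reverse transcriptase there, so the end of each cDNA reports the place of contact. Tra2β is an SR-like nuclear splicing regulator that binds purine-rich RNA with a GAA core and activates exons that hold it. Germ cells of the testis splice many transcripts in ways not seen in other tissues.

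Examples of each kind of member are printed below, from the GRCm39 genome in the sense of the RNA, with T for U. Each stretch is 29 bases long and the capital letter is the crosslinked base. Lyar, Ehmt2 and Akap12 held the coding members with the highest lowest count over the 3 libraries, Ehmt2 with this member alone. The Tsbp1, Tnp2, Hsp90b1 and Nasp bases had the highest lowest count among the coding members of their gene. The non-coding and unannotated ones are the deepest of their kind, and Tra2a is shown because the study named a regulated exon of this gene.
Ehmt2, chr17:35124190-35124218, plus strand: aagaggaggaggagGaagaagaggacgag
Akap12, chr10:4303843-4303871, plus strand: gacgaggaagaaggGgaaaagacagagcc
Tsbp1, chr17:34679381-34679409, plus strand: agaagagaagaaacGcaagaaagaaaaga
Tnp2, chr16:10606190-10606218, minus strand: agaacaggaagaccTttgaagggaaagtg
Hsp90b1, chr10:86534255-86534283, minus strand: ccttggaagaagatGaagcagcaaaagaa
Nasp, chr4:116461154-116461182, minus strand: actgctacctgaaaTtcgagagaagatag
Lyar, chr5:38382014-38382042, plus strand: ccaaaaatggtattTtttacatgcaatgc
Tra2a, chr6:49230001-49230029, minus strand: aagaaattgaagagTtttttccaagaatg
Zmat4 intron, chr8:24472691-24472719, plus strand: agaaggcaatggaaGttttgctgaaggag
Gm22513, chr12:54743581-54743609, plus strand: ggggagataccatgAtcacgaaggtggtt
Rn7sk, chr9:78082627-78082655, minus strand: agggtagtcaagctTccaagactccagac
no gene, chr11:108902709-108902737, minus strand: ggcgtccagtgcggTaacgcgaccgatcc

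The cDNA counts behind these bases differed by kind of RNA. In coding sequence, the Ehmt2 base, in exon 8 of 28 of a histone methyltransferase gene, carried 5, 3 and 7 cDNAs in replicates 1, 2 and 3. The Akap12 base carried 3, 2 and 8, the Tnp2 base 5, 2 and 6, the Hsp90b1 base 3, 1 and 5, and the Lyar base 3, 3 and 10. Each coding count stayed at 10 or below. The Zmat4 base, in an intron, carried 19, 17 and 18 cDNAs. The Gm22513 base, in a small nuclear RNA gene, carried 24, 94 and 35, the Rn7sk base 23, 37 and 36, and the base with no gene on chromosome 11 carried 41, 31 and 68. These bases were picked for depth, and most members of every region had a lowest count of 1, among them 540 of the 827 in exons of non-coding transcripts and 226 of the 360 intergenic ones.

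Presence in 3 libraries was a low bar in cDNAs. At 370 members each library had exactly 1 cDNA, which is the least the rule admits, and at 1402 members the lowest of the 3 counts was 1. The lowest count was at least 2 at 489 members and at least 5 at 136. The most cDNAs at a member were 59, 141 and 85 in replicates 1, 2 and 3. Just outside the rule lay 19062 positions found in exactly 2 libraries, of which 5161 were absent from replicate 1, 10659 from replicate 2 and 3242 from replicate 3. Of these, 247, 926 and 105 in the same order had at least 2 cDNAs in both other libraries. All members together held 5448, 10712 and 7769 cDNAs, 1.59%, 1.74% and 1.61% of the crosslinks of replicates 1, 2 and 3. The number of members followed from the number of libraries and the cDNAs required. It was 7052, 12550 and 5133 without replicate 1, 2 and 3, and 489 with at least 2 cDNAs in each library.

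Members were found in other places than positions of 1 library. Exons of non-coding transcripts held 827 members, 43.7% (95% Clopper-Pearson interval 41.5 to 46.0, counting error only), against 5.99% ± 0.0981 (SD, n = 3) of the positions found in 1 library only. The interval treats members as independent and is too narrow where they cluster. Groups of at least 5 members, each at most 10 nt from the next, held 759 of all members. Introns held 184 members, 9.73%, against 47.8% ± 5.95. Intergenic sequence held 360 members, 19.0%, against 18.0% ± 7.38. Coding sequence (CDS) held 481 members, 25.4%, against 20.02% ± 9.22, so that the CDS share of members lay within the spread of the libraries. The 3′ UTR held 28 members, 1.48% against 6.34% ± 2.68, and the 5′ UTR 11 members, 0.582% against 1.83% ± 0.755. CDS and UTRs together held 520 members, 27.5%, against 28.2% ± 12.6. These shares are descriptions, since a position in a heavily crosslinked RNA is more easily found in all libraries. Without replicate 1, 2 and 3 the share in CDS and UTRs was 45.0%, 71.2% and 37.2%, and with at least 2 cDNAs in each library it was 3.27%.

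**Figure D1:**
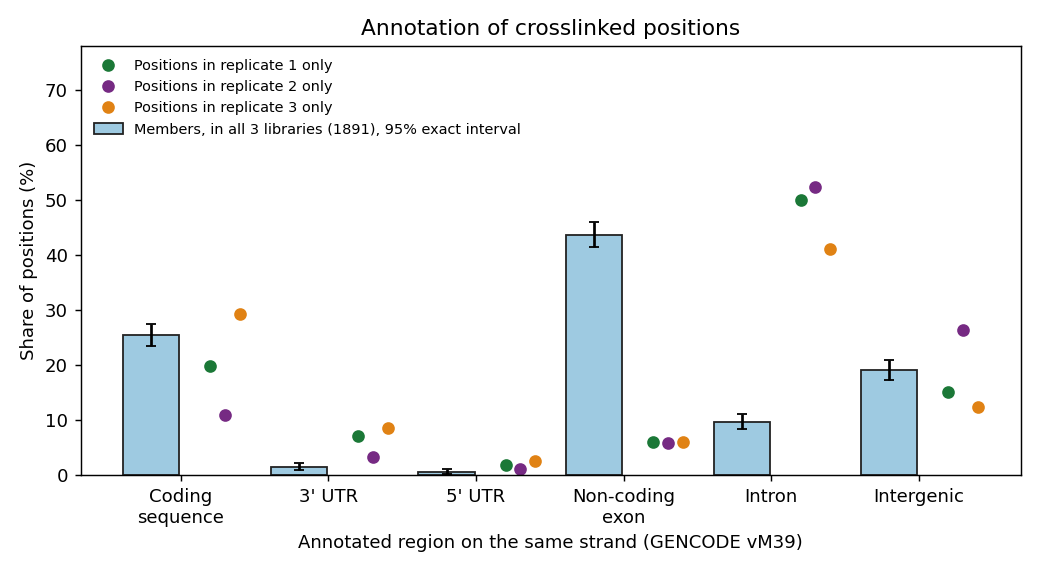
Share of positions (%) by annotated region on the same strand. Bars are the 1891 members with 95% Clopper-Pearson intervals, which treat members as independent. Points are the positions found in replicate 1, 2 or 3 only. Non-coding exons hold 43.7% of members and close to 6% of the positions of each library, and introns show the opposite order.

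The rate per position was also highest in exons of non-coding transcripts, and it was lowest in introns. Members per 1000 positions crosslinked in any library were 10 in exons of non-coding transcripts, 1.81 in CDS, 1.405 in intergenic sequence, 0.462 in 5′ UTRs, 0.348 in 3′ UTRs and 0.286 in introns. By gene type the rate was 281 in genes of the type misc_RNA, 213 in rRNA, 68.1 in miRNA, 42.3 in snRNA, 6.71 in snoRNA, 1.71 in long non-coding RNA (lncRNA) and 0.773 in protein-coding genes. Several of these rates rest largely on 1 gene. Rn7sk held 80 of the 88 misc_RNA members, and Rn18s-rs5 held 211 of the 213 in rRNA. Mir6236 held all 13 in miRNA, and Malat1 held 310 of the 412 in lncRNA.

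The members fell into a deep and a shallow part. Of the 1402 members whose lowest count was 1, 466 (33.2%) lay in CDS. Of the 353 members with a lowest count of 2 to 4, 15 (4.25%) lay in CDS, and of the 136 with a lowest count of 5 or more, 0 did. Exons of non-coding transcripts held 38.5%, 57.5% and 61.8% of the same classes, and intergenic sequence 16.1%, 26.3% and 30.1%. Members in CDS were therefore nearly all bases that at least 1 library touched a single time.

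**Figure D2:**
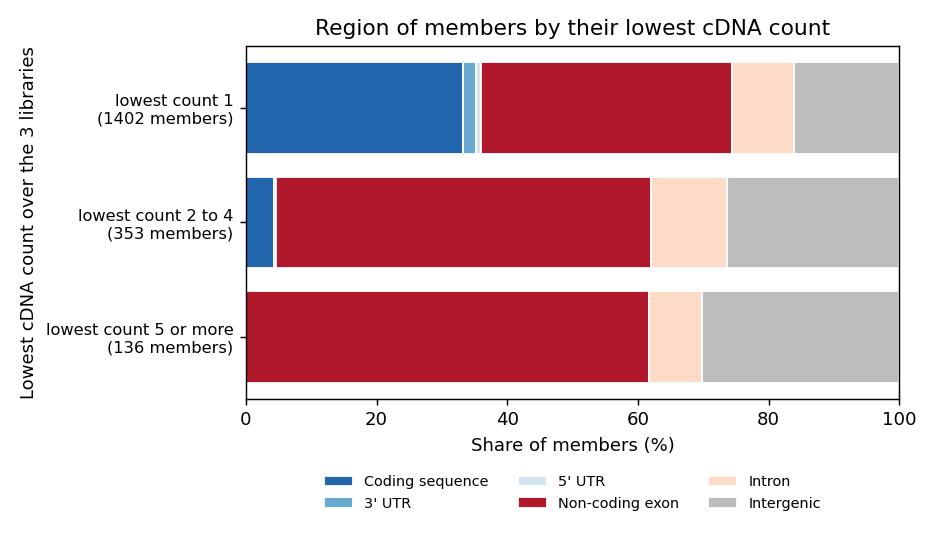
Region of members (share in %, stacked) by their lowest cDNA count over the 3 libraries, 1402, 353 and 136 members from top to bottom. The CDS part shrinks from 33.2% to 4.25% and is absent from the class with 5 or more cDNAs in each library.

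The members lay in 370 genes, 2.03% of the 18223 genes that had crosslinks in all 3 libraries, and 243 of these genes held 1 member each. Protein-coding genes with a member numbered 254, 2.27% of the 11167 that had crosslinks in each library. Genes with a member had a median of 247 crosslinks over the 3 libraries together, against 21 in the 17853 genes without. Many crosslinks did not always bring a member. The 5 genes with the most crosslinks and no member were Ctnna3, Agbl4, Macrod2, Immp2l and 4930414F18Rik, chosen after their values were seen, with 3699, 3008, 1921, 1823 and 1738 crosslinks in all. Exons held between 0.274% and 2.60% of their crosslinks.

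Malat1, a long non-coding RNA retained in nuclear speckles beside splicing factors, held more members than any other gene, 310 or 16.4% of all. Its members carried 518, 1847 and 672 cDNAs in replicates 1, 2 and 3, which were 36.9%, 26.6% and 27.98% of the crosslinks of the gene. Replicate 2 was the highest in cDNAs and the lowest in share. The members spread over 6587 nt of the 7886 nt gene in 108 runs, a run being members at most 10 nt apart on 1 strand. The longest Malat1 run, chr19:5851623-5851785 on the minus strand, held 42 members with 68, 214 and 87 cDNAs. At 54 Malat1 members each library had at least 2 cDNAs. Neat1, the neighbouring nuclear RNA of paraspeckles, had 32, 55 and 26 crosslinks and no member.

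The window of 30 nt on each side of a Malat1 member held the pentamer GAAGA at 38.4% of the 310 members. The share was 7.93%, 26.8% and 9.73% at the 328, 1054 and 637 Malat1 positions found in replicate 1, 2 or 3 only. The crosslinked base was uridine at 57.1% of the members and at 36.3%, 22.1% and 38.6% of those positions. Neighbouring members share most of their window, so no test was made within 1 gene.

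Ribosomal RNA and 7SK held the next most members. Rn18s-rs5, a copy of the 18S ribosomal RNA gene on chromosome 17, held 211 members with 1025, 743 and 1235 cDNAs, 74.1%, 47.4% and 75.7% of the crosslinks of the gene. Here replicate 2 was the lowest library. Its longest run, chr17:40158420-40158469 on the plus strand, held 39 members in 50 nt with 370, 159 and 479 cDNAs. Rn7sk, the RNA that holds the elongation factor P-TEFb in an inactive complex, held 80 members in a single run of 103 nt, bases 194 to 296 of its 331, toward the 3′ end of the RNA. They carried 414, 852 and 828 cDNAs of the 427, 879 and 862 in the gene, so that nearly every crosslink to 7SK fell in this stretch in each library. GAAGA lay near 2.37% of the 18S members and 0 of the 80 members of 7SK, and the crosslinked base was uridine at 29.9% and 20% of them. Both values were below those of Malat1 members. At 18S positions of replicate 1, 2 or 3 only, GAAGA was at 3.49%, 2.83% and 2.63% and uridine at 20.9%, 23.1% and 26.3%. The 4, 8 and 6 such positions of 7SK had GAAGA at 0 and uridine at 25%, 37.5% and 16.7%.

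**Figure D3:**
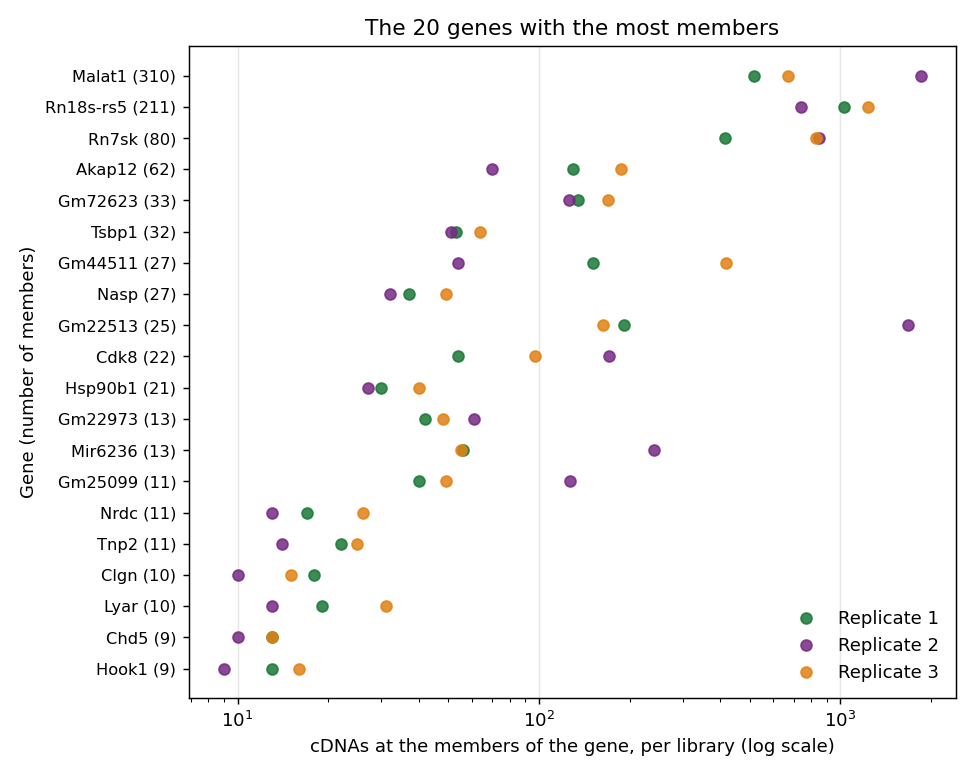
The cDNAs at members in each library (log scale) for the 20 genes with the most members, whose numbers stand in brackets. Malat1 and the small nuclear RNA Gm22513 are highest in replicate 2, at 1847 and 1672 cDNAs, while the protein-coding gene Akap12 is lowest there, at 70.

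The small nuclear RNAs (snRNAs) of the spliceosome held 149 members in annotated snRNA genes. Their families were read from the closest named copy of the annotation. The U1 family, which pairs with the 5′ splice site, held 49 members in 12 genes, the U5 family 33 in 6, the U2 family, which pairs with the branch point, 28 in 7, and the U6 family 26 in 20. The rare U11 and U12 RNAs, of the minor spliceosome, held 4 and 7 members in 1 gene each. A further 2 snRNA genes matched no named copy. Members of the U1 family carried 280, 2120 and 214 cDNAs in replicates 1, 2 and 3, those of U5 127, 331 and 135, those of U2 98, 106 and 102, and those of U6 30, 53 and 47. Scaled to the library total, U1 and U5 were highest in replicate 2, at 805, 3422 and 438 CPM and at 365, 534 and 276 CPM. U2 was lowest there, at 282, 171 and 209 CPM, and U6 was close to level, at 86.2, 85.5 and 96.2 CPM.

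Gm22513, 99.4% identical over 164 nt to the U1 gene Rnu1a1, held 25 members with 192, 1672 and 163 cDNAs, all within its first 58 bases. One nucleotide upstream of its annotated start, at chr12:54743566, lay a member assigned to no gene with 25, 120 and 21 cDNAs. Members sat at the same place, 1 nt before the annotated start, at 4 other small RNA genes, with lowest counts of 3 cDNAs or fewer. Gm22973, 95.3% identical to the U2 gene Rnu2-10, held 13 members with 42, 61 and 48 cDNAs, and Gm25099, like Rnu5g, held 11 with 40, 127 and 49. Copies of a family share their sequence, so cDNAs cannot be placed with certainty in 1 copy. Of all members, 89.4% were followed by 31 nt that occur once in the genome, against 98.0%, 94.7% and 97.5% of the positions of replicate 1, 2 or 3 only.

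Another kind of member lay in stacks outside annotated exons. The 544 intronic and intergenic members included 463 followed by 31 nt that occur once in the genome, and 21 whose 61 nt window was like an annotated small or ribosomal RNA. On chromosome 11, 49 members lay in 87 nt at chr11:108902711-108902797 on the minus strand, antisense to the lncRNA gene Gm36876, with 358, 1015 and 390 cDNAs. A further 15 lay close by at chr11:108902661-108902693 with 88, 78 and 62. In an intron of the gene Gm44511, annotated as protein-coding, 22 members lay in 40 nt at chr6:128776437-128776476 on the minus strand, with 140, 41 and 403 cDNAs. An intergenic stack at chr6:47716835-47716875 on the minus strand held 15 members with 139, 23 and 326. Replicate 2 was the highest library in the large stack of chromosome 11 and the lowest in both stacks of chromosome 6. Cdk8, whose product is a kinase of the Mediator complex, held 22 members, all intronic and within 83 nt, with 54, 171 and 97 cDNAs. The lncRNA gene Gm72623 lies next to them, inside Cdk8, and held 33 members with 135, 126 and 170 cDNAs, of which 25 formed a run at chr5:146197851-146197891 on the plus strand. Mir6236, annotated as a miRNA gene, held 13 members with 56, 240 and 55 cDNAs. The intronic members of Zmat4, Camk1d and Gm42306 with the highest lowest count carried 19, 17 and 18, then 17, 11 and 24, then 8, 22 and 12 cDNAs. Of the 360 intergenic members, 172 lay antisense to a gene. The reference used here held no 28S or 45S ribosomal RNA, so likeness of these stacks to them was not tested.

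The members in UTRs were few, and all but 1 had a lowest count of 1. The largest totals in 5′ UTRs were those of Smcp, a protein of the sperm mitochondrial capsule, with 4, 1 and 8 cDNAs, of the transition protein gene Tnp1 with 2, 1 and 8, and of Akap12 with 5, 1 and 4. In 3′ UTRs a Tsbp1 base with 2, 2 and 4 cDNAs was the one with a lowest count above 1, and the next by total were a Tsbp1 base with 3, 1 and 7 and bases of Akap12 and Tmem245 with 1, 1 and 8 and with 2, 1 and 7. Replicate 3 had the most cDNAs at each of these bases except the Akap12 base of the 5′ UTR.

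Stacking set the non-coding members apart in layout. All members formed 940 runs, of which 699 were a single base and 69 held at least 5 members, 759 in all. CDS members formed 393 runs, 339 of them a single base, and the longest held 7. With 1 member kept from each run, the share in CDS and UTRs was 45.6% in place of 27.5%.

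Coding members were spread over many genes, and a few long exons held several each. The 481 CDS members lay in 195 genes, 477 of them in 265 exons of canonical transcripts, and 205 of these exons held 1 member. Akap12, a scaffold protein that anchors protein kinase A, held 62 members, of which 59 lay in its long second exon of 3, 4798 nt at chr10:4303142-4307939. The members of this exon carried 122, 67 and 172 cDNAs out of 1506, 295 and 3082 in the exon. Over the gene, members held 7.09%, 21.1% and 4.92% of the crosslinks, so the share was highest in replicate 2, where the gene was crosslinked least. Members lay in 47 runs across the gene and the longest had 6.

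Tsbp1, a testis-expressed basic protein, held 32 members with 53, 51 and 64 cDNAs. Of these, 21 lay in CDS, 19 of them in the last exon, number 20, of 872 nt. This exon also held members in the 3′ UTR. Nasp, a chaperone of linker and core histones, held 27 members with 37, 32 and 49 cDNAs. Of these, 14 lay in exon 6 of 15, a 975 nt exon at chr4:116467600-116468574 whose members carried 21, 17 and 26 of 172, 105 and 336 cDNAs. Hsp90b1, the chaperone of the endoplasmic reticulum, held 21 members with 30, 27 and 40 cDNAs. Tnp2, a transition protein that replaces histones in spermatids, held 11 with 22, 14 and 25. Nrdc, a metalloprotease gene, held 11, of which 10 lay in exon 2 of 331 nt. Clgn, the chaperone calmegin of the germ cell endoplasmic reticulum, held 10 members, 8 of them in exon 13, and Lyar, a nucleolar protein gene, also held 10. The microtubule-binding Hook1 and the chromatin remodeller Chd5 held 9 each. In all of these 10 genes the member cDNAs of replicate 2 were the fewest, though replicate 2 was the largest library.

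Place within the exon was compared with CDS positions of 1 library in the same genes. Of the 477 members, 80.7% lay in internal exons, against 83.7%, 84.2% and 84.4% for positions of replicate 1, 2 and 3 only. The median length of those internal exons was 171 nt for members and 164, 173 and 163 nt for the others. The median place in the exon, as a part of its length, was 0.530 against 0.489, 0.561 and 0.479. The first 30 nt held 17.1% of the 385 internal members against 19.2%, 15% and 20.3%, and the last 30 nt 18.4% against 18.1%, 18.9% and 17.8%. Exons of 300 nt or more held 33.5% against 25.8%, 33.8% and 24.5%. The member values for length, place, both exon ends and long exons lay inside the range of the 3 libraries, and the share in internal exons lay below it. First exons and genes of a single exon held 4.61% and 4.19% of members, against 3.02%, 3.41% and 3.15% and against 2.51%, 0.680% and 2.45%.

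The study named 12 RNAs for binding or for a change in splicing, Malat1 and Nasp among them. Tra2a, the paralogue of Tra2b, held 2 adjacent members, chr6:49230014 with 2, 1 and 2 cDNAs and chr6:49230015 with 1, 7 and 1. They lay in an exon outside the canonical transcript that is annotated as CDS in another transcript, of whatever type. Whether it is the poison exon named by the study was not tested. Ggnbp2, a gene needed for spermatid development, held 2 members. The one at chr11:84745137, with 1, 1 and 2 cDNAs, lay in an exon outside the canonical transcript, and the one at chr11:84751387, with 1, 2 and 1, in exon 4 of 14. Phf7 held 1 member, chr14:30970010 with 1 cDNA in each library, in exon 4 of 11. The other 7 held 0 members, and 2.03% of the 18223 genes with crosslinks in all 3 libraries held one. The study looked for tags associated with its splicing changes, and its views of Ggnbp2 and Rpgr pooled the tags of 3 replicates. That is a different measure from the same nucleotide in each library, so 0 members does not mean that no binding was found. Tra2b itself had 56, 53 and 88 crosslinks, Ptbp2 59, 97 and 83, Rpgr 35, 52 and 64, Rad18 58, 65 and 81, Cep126 147, 164 and 245, Slc4a1ap 16, 16 and 37, and Map7d2 3, 4 and 5.

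Other lists of genes were counted in full. Of 7 spermatid chromatin genes, 5 held members, 28 in all. They were Tnp2 with 11, Prm3 with 7, Tnp1 with 6, Prm2 with 3 and Prm1 with 1, while H1f6 and H1f7 held 0. The list had 747, 193 and 1348 crosslinks in the 3 libraries. Of 13 genes listed under sperm tail and sheath, 6 held 79 members. The list as drawn up included the protein kinase A scaffold Akap12, which alone held 62 of them. A further 8 lay in Odf2, which encodes an outer dense fibre protein, 5 in the axonemal gene Spag17, 2 in the dynein gene Dnah8, and 1 each in Fsip2 and Spag16. Akap3, Akap4, Odf1, Fsip1, Dnah1, Dnah2 and Dnah17 held 0. Of 7 chaperone genes, Nasp, Hspa4l and Hsp90aa1 held 27, 3 and 2. Of 13 meiotic chromosome genes, the synaptonemal complex genes Sycp2 and Sycp1 held 2 and 1. Of 13 SR and Tra2 genes, Tra2a held 2 and Srsf1 and Srsf11 held 1 each. Of the 6 nuclear non-coding RNAs, Malat1 and Rn7sk held 390 members between them. The median was 3 members per gene in the spermatid chromatin list and 0 in each of the other 5 lists named here. Beside the numbers of listed genes with a member, 2.03% of the 18223 genes with crosslinks in all 3 libraries held one. Among the cell type markers, the 8 germ cell genes held 11 members, in Tnp1, Prm2, Prm1 and Ddx4, and those of Sertoli, Leydig and peritubular myoid cells, macrophages and blood held 0.

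The sequence around a member was the one feature the rule did not use that could be tested. For each gene and region, the most 5′ member was paired with the nearest position of 1 library in the same gene and region, more than 60 nt away, which gave 314, 325 and 319 pairs for positions of replicate 1, 2 and 3 only. Partners lay at a median distance of 123, 186 and 86 nt. A two-sided exact McNemar test compared both positions of a pair, with Benjamini-Hochberg adjustment in each library, and a call required an adjusted p under 0.05 and the same direction against each of the 3 libraries. The 3 comparisons share their members, so they are not independent of each other. An SD given over them is the spread between comparisons with different partner positions, and not between independent measurements of the members.

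In the pairs, the crosslinked base of members was more often uridine than that of their partners. It was uridine at 50.3%, 49.8% and 50.2% of paired members and at 36.9%, 27.4% and 31.4% of their partners in replicates 1, 2 and 3, a difference of 18.2 percentage points ± 4.57 (SD, n = 3). The adjusted p of the exact test was 0.0339, 9.26e-07 and 0.000519. Cytidine was rarer at members, 5.73%, 4.92% and 5.33% against 14.97%, 19.1% and 17.6% (adjusted p 0.0274, 2.74e-06 and 0.000433, exact test). Adenosine was 10.8%, 11.4% and 10.7% against 18.8%, 27.4% and 21.3%, and the call failed on an adjusted p of 0.123 in replicate 1 (exact test). Guanosine was 33.1%, 33.8% and 33.9% against 29.3%, 26.2% and 29.8%, with adjusted p of 0.264 or above (exact test). Of the 244 combinations of base and offset from 30 nt upstream to 30 nt downstream, 2 were called higher, 0.82%, and 1 lower, 0.41%. Besides uridine and cytidine at the crosslink, the called one was adenosine 16 nt downstream, 46.1% against 32.5% on average with a highest adjusted p of 0.0318 (exact test).

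The uridine result changed with the match and with the cDNAs required. The difference was 9.03, 13.6 and 11.5 points without replicate 1, 2 and 3, and called each time. With at least 2 cDNAs in each library it was 6.03 points and not called (adjusted p 1.0, exact test). Against all positions of 1 library, with no match on gene and region, members were uridine at 41.4% and the others at 47.1%, 32.7% and 46.3%, a mean difference of -0.633 points. Requiring at least 2 cDNAs in each library also lowered the share of members in CDS and UTRs from 27.5% to 3.27%. Depth and region could therefore not be told apart in that comparison. The uridine difference itself varied by region. In CDS pairs uridine was 52.6%, 53.2% and 52.3% against 28.9%, 28.9% and 27.2%, while in intron pairs it was 39.4%, 39.5% and 41.1% against 52.1%, 30.9% and 41.1%, with no direction shared by the 3 libraries.

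**Figure D4:**
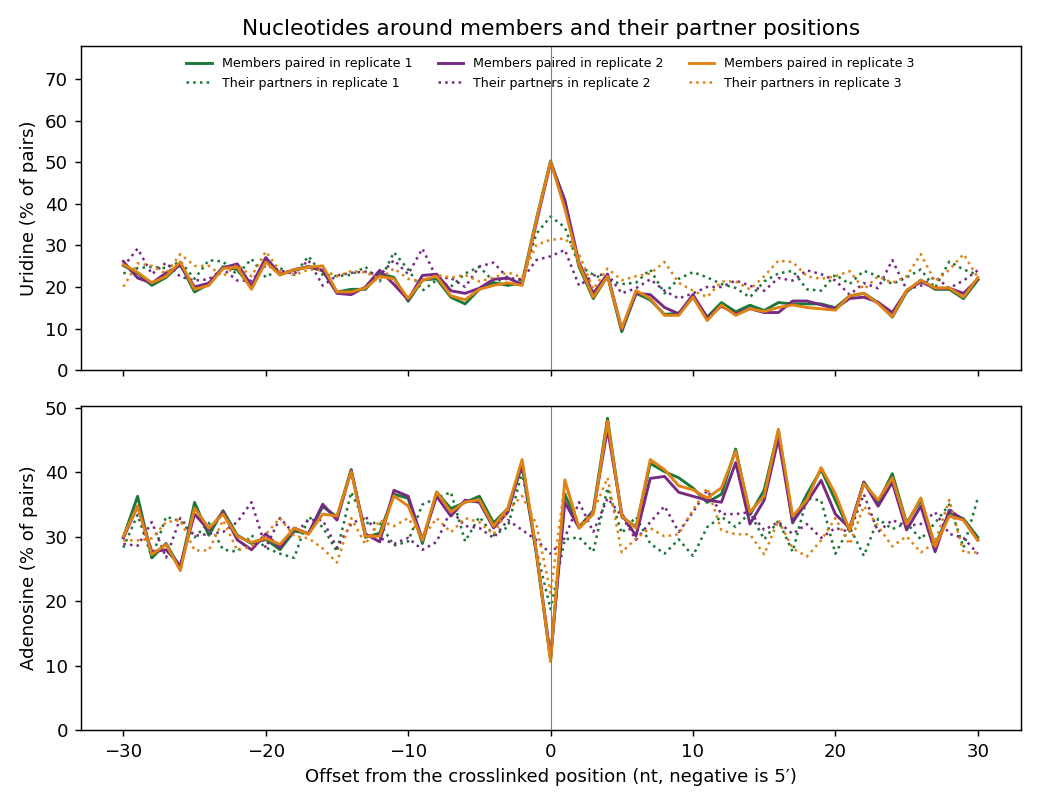
Share of pairs (%) with uridine (upper panel) or adenosine (lower panel) at each offset from the crosslinked position, in nt. Solid lines are members and dotted lines their partners, 1 colour per library. At offset 0 uridine reaches 50.3% in members of the replicate 1 pairs against 36.9% in partners, and adenosine falls to 10.8%.

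Purine-rich sequence lay close to members. GAAGA was present within 30 nt of 53.2%, 49.2% and 53.0% of paired members and of 29.3%, 33.2% and 28.8% of their partners, a ratio of 1.71 ± 0.199 (SD, n = 3). AGAAG, which overlaps it in 4 bases, was present at 47.1%, 43.4% and 46.1% against 27.4%, 29.2% and 26.6%, a ratio of 1.64 ± 0.139. These 2 were the pentamers called higher, 0.195% of all possible ones, and 0 were called lower. At an unadjusted p under 0.05 in all 3 exact McNemar comparisons there were 17 higher and 1 lower. AAGAA had a ratio of 1.65 ± 0.208 but an adjusted p of 0.0816 in replicate 2 (exact test). Without replicate 1, 2 and 3, 18, 6 and 9 pentamers were called, all of them higher, and both GAAGA and AGAAG were among them each time.

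The triplet GAA itself was near most positions of both kinds, at 89.5%, 88.0% and 89.3% of members and 82.5%, 86.8% and 80.3% of partners. The difference of 5.78 points ± 4.07 (SD, n = 3) was not called, with adjusted p of 0.134, 0.969 and 0.0317 (exact test). Without replicate 1 it was 7.87 points and called, the highest adjusted p being 3.14e-07 (exact test). By the exact McNemar test 0 of 64 trimers were called higher and 0 lower, with 1 and 5 at an unadjusted p under 0.05 in all 3 comparisons. Averaged over each gene and region, purines made up 60.7%, 60.1% and 60.6% of the windows of members and 55.3%, 57.9% and 54.9% of those of the positions of 1 library. Members were higher in 255 of 354, 222 of 375 and 258 of 362 such strata. The mean difference was 4.39 points ± 1.93 (SD, n = 3), and 1.04 points without replicate 2.

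In coding sequence, where most pairs lay, the shares were higher. Over all CDS positions, windows with GAAGA were 69.9% of the 481 members, 49.0% of the 10659 positions found in 2 libraries, and 30.5%, 39.2% and 30.5% of those found in replicate 1, 2 or 3 only. Purines were 66.1% of the windows of CDS members against 59.5% for 2 libraries and 54.7%, 57.0% and 54.8% for 1. In CDS pairs GAAGA was present at 62.9%, 63.2% and 63.1% of members against 38.7%, 40% and 36.4% of partners. Members of 1 exon can share part of their window, and the paired values count each gene and region once. In intron pairs GAAGA was at 30.99%, 27.2% and 30.1% against 11.3%, 23.5% and 17.8%.

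Within the window the pentamers lay mostly downstream of the crosslink. GAAGA or 1 of the other 2 pentamers named above was centred at 8.56% of CDS members per nt over the 30 nt downstream and at 5.65% over the 30 nt upstream. The share was 2.49% at the crosslinked base itself, and it was highest, 13.7%, at 14 nt downstream. CDS positions of replicate 2 only in the same genes also had more downstream, 4.01% against 2.50% upstream. Those of replicate 1 and 3 only were nearly level, 2.57% against 2.60% and 2.34% against 2.41%. The printed stretches did not all follow this order. In Ehmt2, GAAGA and AGAAG are centred downstream of the crosslinked base only. In Akap12 and Tsbp1 both lie upstream only, with AAGAA on both sides in Tsbp1, and the Lyar stretch holds no GAA.

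**Figure D5:**
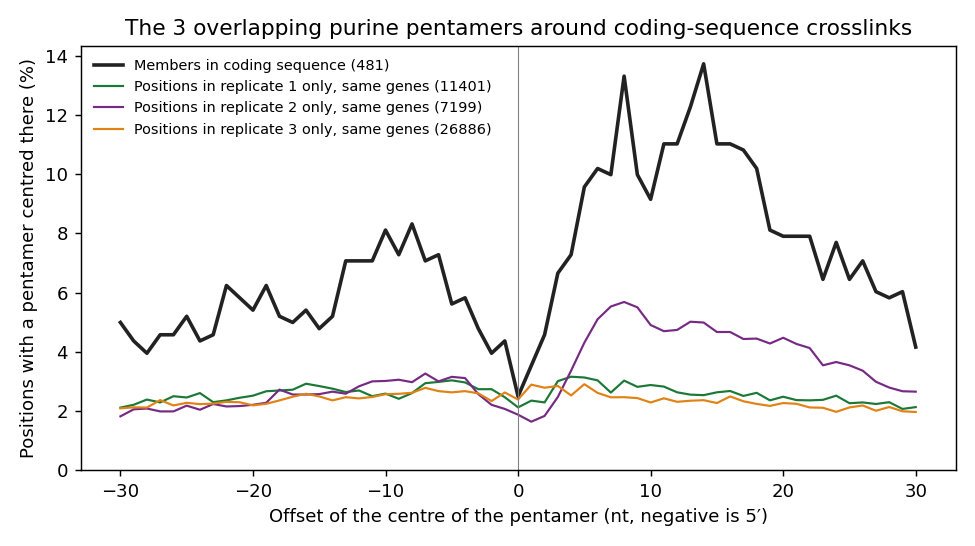
Share of positions (%) with 1 of the 3 overlapping purine pentamers centred at each offset (nt) from the crosslinked base, in CDS of genes with CDS members. Members (black) reach 13.7% at 14 nt downstream and fall to 2.49% at the crosslink, and positions of replicate 2 only reach 5.68%.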

How the data were processed

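The authors had processed the iCLIP reads with iMAPS. They deposited counts, in whole numbers, of the unique cDNAs that ended at each nucleotide and strand, not normalised and with replicates kept apart. The submitters' processing notes named Trim Galore 0.6.7, Bowtie 1.3.1, STAR 2.7.9a, UMI-tools 1.1.2 and the build mm39. How reads that map to several places were treated was not given in the sources used here. Random barcodes marked the cDNAs, so counts are close to counts of molecules. Totals were 348033, 619571 and 488719 cDNAs in replicates 1, 2 and 3.

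Positions were joined on chromosome, base and strand. They were annotated with all transcripts of GENCODE vM39 by bedtools 2.31.1, with CDS first, then 3′ and 5′ UTRs, other exons, introns and intergenic sequence. Exon numbers followed the canonical transcript. Windows were read from GRCm39, looked up in the genome by the 31 nt downstream, and aligned to 3881 annotated small and ribosomal RNA transcripts with blastn 2.17.0 at 90% identity over 40 nt. Paired tests used scipy 1.17.1 and were tested on simulated data.

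The text names the 20 genes with the most members, the 3 members with the highest lowest count of each region, called pentamers, RNAs named by the study, and listed genes. Members and lists were chosen with earlier results of these data known. The genome file marks no repeats, so multi-copy sequence was set aside by gene type, and by uniqueness as an alternative chosen after seeing the data, as was restriction to CDS.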

Additional observations from a re-analysis of the deposited data

Results flagged for a closer look

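The mitochondrial genome, which the rule leaves out, also carried crosslinks. Of its 2585 positions crosslinked in any library, 512 were found in all 3 libraries, a share of 19.8%. The share was 0.140% over the positions of the other chromosomes. Genes of the types rRNA and misc_RNA among those had 213 and 281 members per 1000 positions, so such a share was not particular to the mitochondrial genome. There was no control library to set the mitochondrial share against.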

How the results depend on the processing

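The number of shared positions was 1891. It ranged from 5133 to 12550 when 1 library was left out, and was 489 with at least 2 cDNAs in each library, 7080 when positions within 1 nt counted as shared, 940 with 1 member of each run and 481 in CDS only. The share in CDS and UTRs, 27.5%, ranged from 37.2% to 71.2% without 1 library, and was 3.27% with at least 2 cDNAs, 36.5% without genes of multi-copy RNA types, 38.4% without sequence found more than once or like small RNAs, 45.6% with 1 member of each run and 15.7% with introns taken before exons. The uridine difference, 18.2 points, lost its call at 6.03 points with at least 2 cDNAs and turned to -0.633 points without the match on gene and region, and it kept its direction and call under 7 alternatives, at 9.03 to 13.6 points without 1 library. The purine difference, 4.39 points, ranged from 1.04 to 3.48 points without 1 library and moved by less than the spread between libraries under 9 alternatives. GAA, not called at 5.78 points, ranged from 1.35 to 7.87 points without 1 library and was called without replicate 1. The number of pentamers called, 2, ranged from 6 to 18 without 1 library and was 2 or 3 under the 5 other alternatives, with GAAGA and AGAAG called under every alternative run. Pentamers were not tested for members with at least 2 cDNAs in each library. The causes of these changes were not tested. No paired analysis was possible because the 3 libraries form 1 group and replicate numbers pair no samples. This concerns libraries only, since positions were paired within genes. Depth limits single bases most, since 1402 of 1891 members rest on 1 cDNA in at least 1 library.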
